A study of Danio rerio with 2 samples.

Results

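The regions described here are the open chromatin regions of the zebrafish embryo that were at least 2-fold higher in an npas4l mutant library than in a wild type library. ATAC-seq was used, in which a transposase cuts DNA where chromatin is open and the number of fragments in a region measures its accessibility. One library came from a single wild type embryo and the other from a single embryo of genotype npas4lbns297/bns297, both at the 1-somite stage and both freed of chorion and yolk. The growth protocol in the labels names the AB strain for both libraries, and the labels give no treatment that differs between them. Of 35854 regions in the table, 26416 were eligible: they lay on nuclear chromosomes outside the long arm of chromosome 4 (beyond 27 Mb), had a mean of at least 50 normalised reads over the libraries and at least 4 in each. A region was counted as higher when log2 of mutant + 1 over wild type + 1 was at least 1. This rule selected 533 regions, 2.02% of the eligible ones. The regions were chosen by these values, so the ratios are a description and no test was made. A further 458 eligible regions (1.73%) were at least 2-fold lower and are used for comparison.

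Npas4l is a bHLH-PAS transcription factor that acts at the head of endothelial and blood specification in the zebrafish, and embryos without it fail to form most endothelial and blood cells. It is best known for the genes that it activates, among them other transcription factors of these lineages. An open region within 1 kb of a transcription start site (TSS) is called a promoter region below, and distal open regions include enhancers. Each library came from a whole embryo, so more cells with an open region and a more open region per cell cannot be told apart. With 1 library per genotype, embryo, library and genotype cannot be told apart either, and regions of npas4l itself were not analysed here.

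The libraries held 7066666 mutant and 7853828 wild type reads in regions, as recovered from the authors' scaled values. The median log2 ratio over eligible regions was 0.02 under the authors' scaling. Intervals below are exact Clopper-Pearson 95% intervals of the split of recovered reads. They cover counting error only and no difference between embryos or libraries. Sequenced fragments are not independent molecules, so the intervals may be too narrow even for counting error. They are computed without the pseudocount of 1 that the quoted ratios carry. For all 533 regions the interval lay above a log2 ratio of 0, with a lowest bound of 0.41. The minimum level and ratio by which the regions were chosen fix this outcome, so it is no evidence for them. For 172 of the 533 the interval lay at or above 1. The same reads chose the regions, so this count too is a description and no evidence for them. Scaling the libraries to equal sums over eligible regions moved the median of all regions by -0.06 and gave 413 higher against 533 lower regions. Scaling to equal sums over the highest 10% of regions moved it by -0.12 and gave 342 against 658.

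The higher regions were mostly modest in level and in ratio. Their mutant values ran from 67 to 5699 normalised reads with a median of 122, and their wild type values from 4 to 2177 with a median of 45. Their mean over the libraries had a median of 83.5, below the 134.5 of all eligible regions. The log2 ratio had a median of 1.22 and quartiles of 1.07 and 1.58. At least 4-fold higher were 75 regions (0.284% of eligible regions), against 50 that were at least 4-fold lower (0.189%). At least 8-fold higher were 38 (0.144%), against 24 lower (0.0909%). The share that was higher fell with depth of coverage, from 3.78% of eligible regions with a mean of 50 to 75 reads to 0.790% of those with 200 to 500 and 0.823% of those with 500 or more. The share that was lower fell too, from 4.41% to 0.379% and 0.150% in the same classes.

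**Figure D1:**
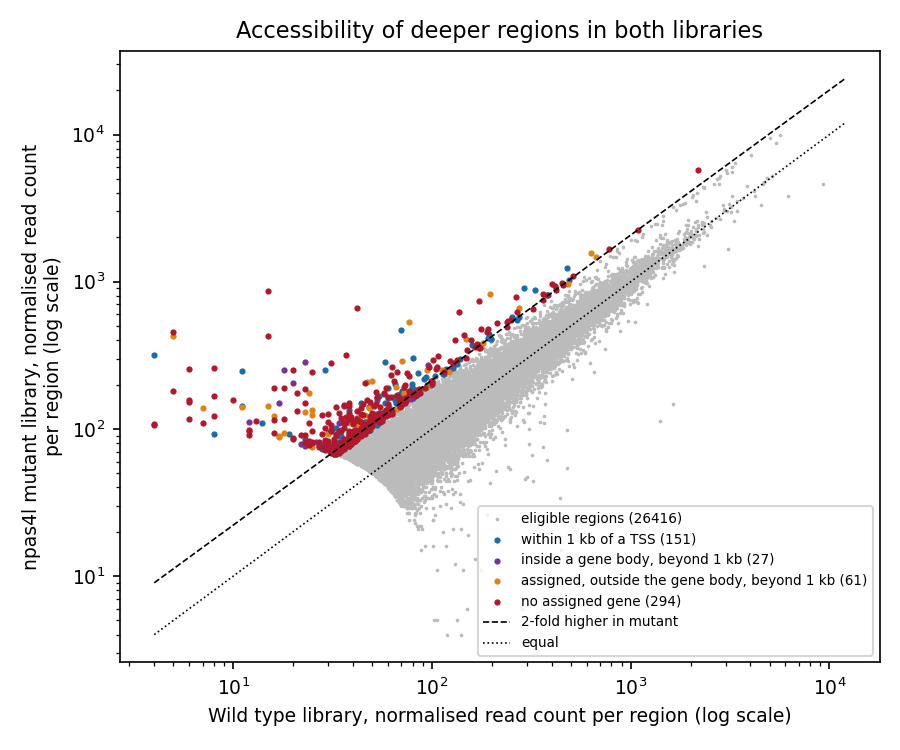
Normalised reads per region in the wild type (x axis) and mutant (y axis) library, both on log scales, for the 26416 eligible regions in grey and the 533 higher regions coloured by position. The coloured points lie along and above the 2-fold line, most of them at low wild type values, and a scatter of regions with under 50 wild type reads lies far above it.

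The largest ratios belonged to regions nearly silent in the wild type library, and most of these lay far from any TSS in the table. The highest was on chromosome 7 (chr7:12793981-12794906, GRCz10), 7.74 kb from the TSS of syt7b, which encodes a synaptotagmin, a family of calcium sensors of vesicle fusion. It had 458 mutant and 5 wild type reads, a log2 ratio of 6.26 (interval 5.37 to 8.24). The next, on chromosome 3, had 426 against 5 reads and lay 3.40 kb from the clone-named gene si:ch211-108d22.1. The third was a promoter region on chromosome 15, 377 bp from the TSS of the clone-named gene si:dkey-285b23.3, with 320 against 4. These regions were close to the floor of the wild type library, at 4 to 5 reads, and high in the mutant.

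Chromosome 24 held 3 of the 10 largest ratios. A region 77.3 kb from wdr48a, a cofactor of deubiquitinating enzymes, had 864 mutant and 15 wild type reads, 54.1-fold. A region 52.6 kb from nog2, which encodes a Noggin family antagonist of BMP signalling, had 181 against 5. A region 67.1 kb from srcin1b had 428 against 15. In each the nearest TSS was more than 50 kb away, so the gene name gives a position and no assignment. The distance was 90.3 kb for the region nearest tmem132e on chromosome 5 (257 against 6) and 173 kb for the one nearest fbxl17, an F-box gene, on chromosome 8 (153 against 6). Closer to their genes were regions 14.8 kb from plekhf2 (158 against 6) and 5.84 kb from rsl24d1, a ribosome biogenesis gene (107 against 4). The remaining named genes among the 14 largest ratios were jac1 at 20.2 kb (168 against 8), spink2.5, a gene of a Kazal type protease inhibitor, at 2.78 kb (138 against 7), gcsha, a gene of the glycine cleavage system, at 124 kb (661 against 42), dexi at 51.5 kb (157 against 10), and the 5S ribosomal RNA and rplp2l genes described below. Their wild type values lay between 7 and 42 reads.

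Some of the higher regions held many reads in both libraries. These counts are totals per region and were not divided by width, which had a median of 465 bp over eligible regions. The deepest lay on chromosome 14, 59.2 kb from fmr1, the gene of the fragile X RNA-binding protein. It was 14760 bp wide and held 5699 mutant and 2177 wild type reads, a log2 ratio of 1.39 (1.32 to 1.46). Another wide region, of 9691 bp on chromosome 17, was nearest to ubr1, an E3 ubiquitin ligase gene, at 117 kb and had 976 against 451 reads. Regions assigned to genes reached 1574 against 628 near nnr (4.50 kb) and 1466 against 670 near tm4sf5 (4.11 kb), a gene of a membrane protein with 4 membrane-spanning segments. The region 1.66 kb from l3mbtl2, a Polycomb group gene, had 969 against 482. Unassigned regions nearest to cpsf3l (1099 against 510), mmp17b (968 against 402), epc1a (955 against 455), cep57 (929 against 417) and wdr47b (885 against 422) were of similar depth. In these deep regions the ratio stayed between 2.01 and 2.62-fold, and their counting intervals were narrow.

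By position, the higher regions were less often promoters than the eligible regions and more often distal, but less so than the lower regions. Of the 533, 151 (28.3%) lay within 1 kb of a TSS, against 42.4% of eligible and 12.4% of lower regions. In the other direction, 1.35% of the 11203 eligible promoter regions were higher. A further 27 (5.07%) lay inside a gene body beyond 1 kb, 61 (11.4%) were assigned to a gene but outside it, and 294 (55.2%) had no assigned gene, against 44.9% of eligible and 73.4% of lower regions. Promoter regions were rarer among the largest ratios. Of the 75 regions at least 4-fold higher, 9 (12%) were promoter regions, 17 (22.7%) were assigned but outside the gene and 44 (58.7%) were unassigned. Of the 50 regions at least 4-fold lower, 6 (12%) were promoter regions and 38 (76%) were unassigned. The promoter share depended on how the ratio was centred. Eligible promoter regions had a median log2 ratio of 0.10 and unassigned ones of -0.09, and with ratios centred within deciles of level and promoter class 16.8% of higher regions were promoter regions. With a threshold of 3-fold it was 17.0%.

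The higher regions were wide. Their median width was 526 bp (quartiles 416 and 718), against 465 bp (344 and 637) for eligible and 378.5 bp (303 and 472) for lower regions. The share of regions that was higher rose over 4 classes of width cut at the quartiles of eligible regions, from 1.13% below 344 bp to 2.62% at 637 bp and above, while the share that was lower fell from 2.77% to 0.545%. This ran through the unassigned regions, of which 37 of 3788 below 344 bp (0.977%) and 108 of 1912 at 637 bp and above (5.65%) were higher. Promoter regions showed no such order, with shares between 1.05 and 1.83% in the same classes and the lowest in the widest.

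**Figure D2:**
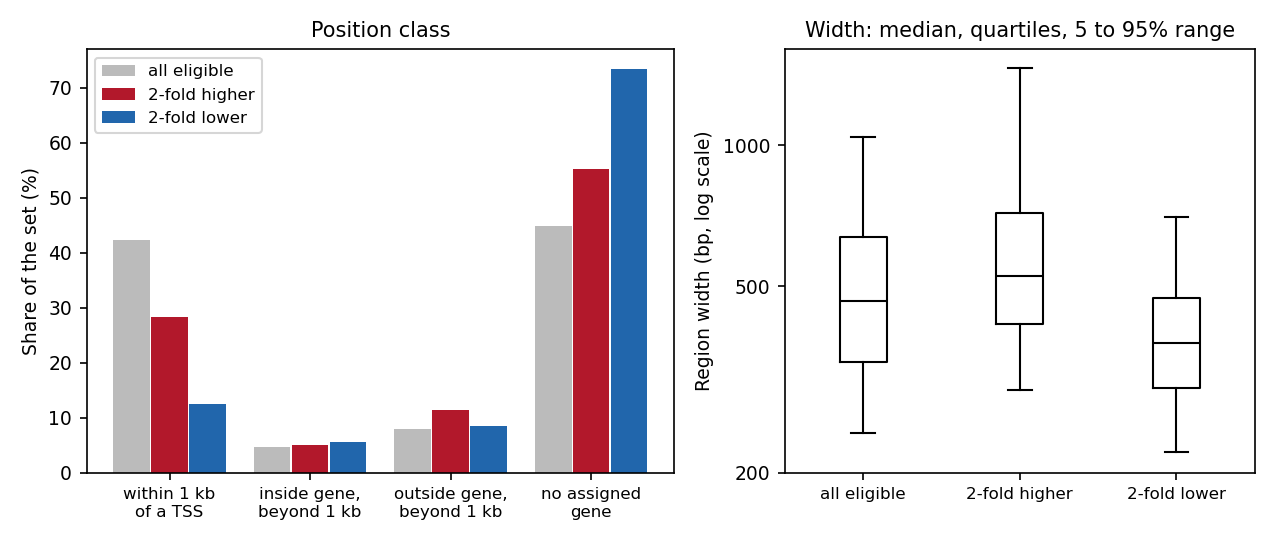
Left, the share (%) of eligible, higher and lower regions in each of 4 position classes. Right, region width in bp on a log scale, with the median, the quartiles and the 5 to 95% range; the higher regions (median 526 bp) were wider than eligible (465 bp) and lower regions (378.5 bp).

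The nearest TSS in the table was a median of 8.99 kb from a higher region, against 3.16 kb for eligible and 21.6 kb for lower regions. It lay within 50 kb for 397 of the 533 (74.5%), against 84.0% of eligible and 74.5% of lower regions. The unassigned higher regions were remote, with a median distance of 46.0 kb against 33.1 kb for all eligible unassigned regions. The 239 assigned regions belonged to 233 genes. Of these 239, 213 (89.1%) belonged to protein-coding genes, against 94.7% of eligible assigned regions, and the rest included 7 long intergenic RNA genes, 6 antisense genes, 2 small nuclear RNA genes and 1 ribosomal RNA gene. Genes with a clone name or no symbol made up 70 of the 239 (29.3%), against 13.6% of eligible and 34.4% of lower assigned regions. Such names were more frequent among higher and among lower regions than among eligible regions at large.

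The deepest promoter region was that of cdc45, a component of the replicative helicase, with 1246 mutant and 479 wild type reads, a log2 ratio of 1.38 (1.23 to 1.53). That of rnf8, a ubiquitin ligase of the DNA damage response, had 874 against 330, and that of zdhhc7, a palmitoyltransferase, 905 against 291. In each the mutant value was 2.60 to 3.10 times the wild type value, and the table held no other eligible region within 50 kb that was nearest to that gene. A U4 small nuclear RNA gene, which belongs to a repeated gene family, had 1022 against 487. The promoter regions of pfkfb2a, a regulator of glycolysis, and NDUFB1, a subunit of respiratory complex I, had 553 against 268 and 566 against 252. The 4 others among the 10 deepest belonged to genes with a clone name, a locus number or no symbol and had 566 to 806 mutant reads.

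The 9 promoter regions at least 4-fold higher were led by si:dkey-285b23.3 and by a 5S ribosomal RNA gene, also of a repeated family, with 247 against 11 reads. The promoter region of snupn, which encodes the adaptor that imports small nuclear ribonucleoproteins into the nucleus, had 253 against 29, a log2 ratio of 3.08 (2.58 to 3.71). That of coa3b, an assembly factor of cytochrome c oxidase, had 283 against 58, and that of acbd4, an acyl-CoA binding protein gene, 93 against 19. The other 4 had clone names, with 93 to 472 mutant and 8 to 70 wild type reads.

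Gene groups were formed from symbols after the values had been seen, so the counts below describe these libraries and support no group. Genes of mitochondrial respiratory chain assembly, mitochondrial gene expression and import held 13 higher regions of 185 eligible (7.03%) and 0 lower ones, with a median log2 ratio of 0.20 over the group. Beside it, 1.64% of all 14551 eligible assigned regions and 1.35% of eligible promoter regions were higher. The 13 were coa3b, pet100, sco2 and cox10, which serve cytochrome c oxidase assembly, sdhaf2 and lyrm1, CMC2 and chchd4a, NDUFB1, the mitochondrial ribosomal protein genes mrps7 and mrpl17, the elongation factor gene tsfm, and ssbp1, which encodes the single-stranded DNA binding protein of mitochondria. Of the 13, 12 were promoter regions. Mutant values ran from 69 (tsfm, against 33) to 566 (NDUFB1), and apart from coa3b at 4.81-fold the ratios ran from 2.05 to 2.84-fold. DNA replication and repair genes held 4 of 77 (5.19%), which were the promoter regions of cdc45, rnf8, dclre1a (167 against 54), a nuclease of crosslink repair, and rad50 (89 against 34), a subunit of the double-strand break complex. LSm, small nuclear ribonucleoprotein and splicing genes held 5 of 69 (7.25%), namely snupn, smndc1 (182 against 71), lsm10 (112 against 46), uhmk1 (105 against 43) and lsm5 (78 against 28). Of the 21 promoter regions of these groups, 1 (uhmk1) had a further TSS within 1 kb. Only genes with an assigned region were searched, so the TSS of another gene would be missed. The promoter regions of these groups had median log2 ratios of 0.22, 0.22 and 0.23, beside 0.10 for all eligible promoter regions, and other groups were similar, with 0.22 for proteasome and 0.20 for innate immune genes. Ribosomal protein genes, also broadly expressed, held 0 higher and 0 lower of 98, with a median of 0.12.

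**Figure D3:**
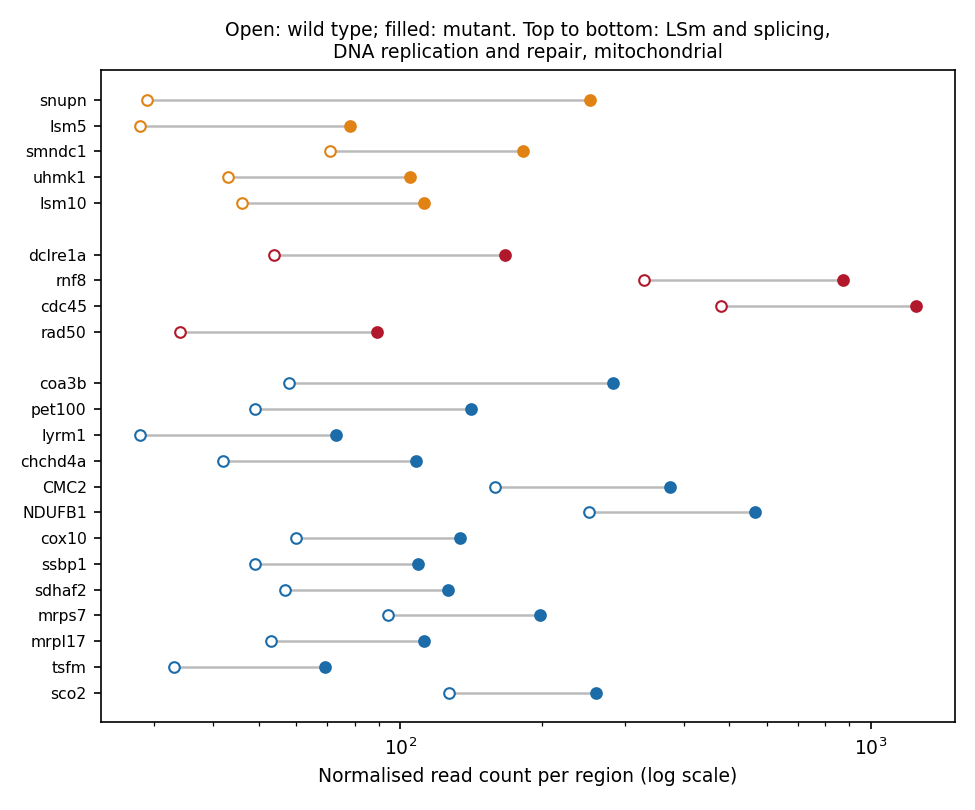
Normalised reads per region (log scale) in the wild type (open) and mutant (filled) library for the higher regions of splicing, DNA replication and repair, and mitochondrial genes. The cdc45 and rnf8 regions are the deepest, and snupn and coa3b have the widest gaps between the libraries.

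Other groups were represented by a few regions each. Genes of innate immunity, the acute phase and immunoglobulins held 8 of 78 eligible regions (10.3%) and 2 lower ones. These included a region 3.91 kb from btk, a kinase of B cell receptor signalling (406 against 148), regions near the antiviral gene mxf (89 against 17), the pentraxin gene crp (124 against 25) and the immunoglobulin light chain gene igl3v2 (210 against 50), and the promoter region of the interferon gene ifnphi1 (105 against 50). Collagen genes held 2 of 29 (6.90%) and 1 lower one. The 2 included a region 1.34 kb from col1a1a, an alpha chain gene of type I collagen (131 against 23). Proteasome genes held 2 of 39 (5.13%) and 0 lower ones. The 2 were a region 1.05 kb from the assembly chaperone gene psmg1 (831 against 196) and the promoter region of psma2a (410 against 199). The promoter region of psmg1 itself had 218 against 113, a log2 ratio of 0.94. Solute carrier genes held 3 of 233 (1.29%), znf zinc finger genes 2 of 128 (1.56%), and 8 homeobox families 3 of 198 (1.52%), beside 1.64% of all eligible assigned regions. The solute carrier, zinc finger and homeobox shares were near that background. These groups held 1, 1 and 4 lower regions, with median log2 ratios of 0.12, 0.07 and -0.13.

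Marker genes of embryonic cell types and of stress, 486 genes in 18 lists, had few higher regions. Of 854 eligible regions whose nearest TSS within 50 kb belonged to a listed gene, 8 were higher (0.937%) and 13 lower, beside 1.79% higher of all 22182 eligible regions within 50 kb of a TSS. Endothelial genes had 0 higher of 74 with a median log2 ratio of -0.27, blood genes 0 of 39 with -0.10, and known Npas4l targets 0 of 18 with -0.23. Muscle genes had 0 of 20 with -0.59 and cardiac genes 0 of 35 with -0.08. These medians lay below the 0.02 of all eligible regions. So did those of other lists without a higher region, with -0.15 for pronephric mesoderm (0 of 48) and -0.20 for myeloid genes (0 of 4). Endoderm had -0.05 (0 of 47), the yolk syncytial layer -0.09 (0 of 10) and germ line and maternal genes 0 (0 of 13). Not below it were the hatching gland with 0.18 (0 of 11) and broadly expressed control genes with 0.11 (0 of 28). Notochord and prechordal plate genes had 0.02 (0 of 50). Of the lists with a higher region, paraxial mesoderm had -0.36 (1 of 68), epidermis -0.10 (2 of 70) and neural genes -0.08 (2 of 217). Neural crest and placode genes had 0.003 (1 of 124) and stress genes 0.03 (2 of 64). The blood and cardiac medians were thus close to those of epidermal and neural genes, and all eligible unassigned regions had a median of -0.09. Within 50 kb, no list other than those of epidermis, neural tissue, neural crest and placode, paraxial mesoderm and stress held a higher region. Small lists can hold 0 at a share of 1.79%, so a count of 0 sets no list apart. The lower regions were 4 of epidermis, 3 of paraxial mesoderm, 2 of muscle and 1 each of blood, cardiac, endoderm and neural genes. Every other list had 0 lower ones, among them endothelial genes and known Npas4l targets.

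The 8 regions near listed genes were scattered over the genome. The largest ratio lay 40.5 kb from lhx2b, a LIM homeobox gene of the forebrain and eye, with 122 against 8 reads. The other 5 eligible regions nearest to lhx2b had log2 ratios of -0.26 to 0.49, and its promoter region had 232 against 167. A region inside cldni, a claudin gene of epidermal tight junctions, had 283 against 23, a log2 ratio of 3.56 (3.05 to 4.32). The other region of cldni, 2.79 kb away, went the opposite way with 50 against 117. For emx3, a forebrain homeobox gene, the region was 49.8 kb from the TSS (117 against 38) and the promoter region had 56 against 61. For irx1a, an Iroquois homeobox gene, an intragenic region had 159 against 78 and the promoter region 337 against 325. For klf2b, a Krüppel-like factor gene of the epidermis, a region 24.1 kb away had 159 against 68 and the promoter region 478 against 396. For emx3, irx1a, lhx2b and klf2b the promoter region was less than 1.5-fold apart between the libraries, and for cldni no promoter region was among the eligible regions.

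The list of paraxial mesoderm was represented by an intragenic region of a gene that the name table calls PCDH8 and the deposited table gives a clone name (151 against 73). The neighbouring gene pcdh8, a protocadherin gene of presomitic mesoderm, had 379 against 409 at its promoter region. Within 50 kb of it, other eligible regions had 71 against 36 and 69 against 108. Farther off, at 102 kb, a higher region nearest to it had 111 against 40. Of the stress list, a region 19.4 kb from baxa, a gene of apoptosis, had 358 against 165. The other was the promoter region of hsp70.1, a heat shock protein gene, with 301 against 80, a log2 ratio of 1.90 (1.56 to 2.28). The deposited table gives that region the symbol mcm5, but its gene identifier and description are those of the heat shock gene, and the name table gives mcm5 to another identifier.

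Along the genome, the higher regions were spread over every chromosome but unevenly. Chromosome 22 held 45 of 876 eligible regions (5.14%) and chromosome 3 held 61 of 1429 (4.27%), while chromosome 5 was lowest with 18 of 1665 (1.08%). Chromosome 3 was also high in lower regions (43, 3.01%), whereas chromosome 22 as a whole was not (17, 1.94%). The first 7 Mb of chromosome 22 were high in lower regions too (11 of 240, 4.58%). On chromosome 3 the higher regions fell in 30 separate 1-Mb windows and included 18 of the 75 at least 4-fold higher (24%). Leaving out chromosome 4, 32.7% of higher regions lay within 5 Mb of a chromosome end, against 23.4% of eligible and 17.6% of lower regions. Closer to the ends the higher regions were near the eligible share, with 6.84% against 6.99% within 1 Mb and 13.1% against 11.6% within 2 Mb. Without the first 7 Mb of chromosome 22 the shares within 5 Mb were 31.8% of higher and 22.8% of eligible regions.

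**Figure D4:**
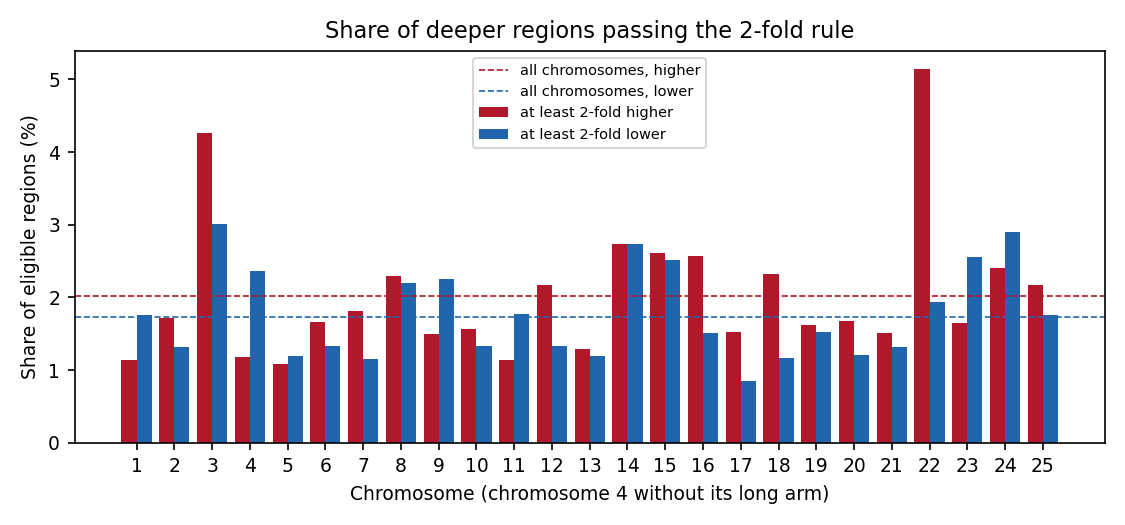
Share (%) of eligible regions at least 2-fold higher (red) and at least 2-fold lower (blue) on each chromosome, with dashed lines for all chromosomes. Chromosomes 22 (5.14%) and 3 (4.27%) have the tallest red bars, and chromosome 3 also the tallest blue one (3.01%).

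The excess on chromosome 22 lay in its first 7 Mb. There 36 of 240 eligible regions (15%) were higher and 11 (4.58%) lower, with a median log2 ratio of 0.22. On the rest of the chromosome 9 of 636 (1.42%) were higher and 6 (0.943%) lower, with a median of -0.08. The boundary was set after the values had been seen. Of the 36 regions, 19 were unassigned, 9 lay outside their gene, 2 inside it and 6 at a promoter, and 26 had a nearest gene with a clone name or no symbol. The named ones were nearest to dram2b, an autophagy gene (84 against 40), ampd2a, an AMP deaminase gene (201 against 99), the zinc finger genes znf1157 and znf1161, pigx, a gene of GPI anchor synthesis (386 against 180), RPL36, ptprsa, cers5, a ceramide synthase gene (210 against 64), and fgfr1bl. The log2 ratios there had a median of 1.13 and a maximum of 2.82, so the stretch was marked by many moderate differences. The sources used here do not say how reads that match several positions were handled, and whether it bears on this stretch was not tested.

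Of the 533 regions, 122 (22.9%) had another higher region within 100 kb, and 8.68% of all eligible regions had a higher region other than themselves within that distance. Among the lower regions, 19.7% had another lower region within 100 kb. The higher regions formed 44 pairs, 6 runs of 3, 2 runs of 4 and 1 run of 8, and 411 stood alone. Eligible regions of a run are counted from its first to its last higher region, so both ends are higher by definition. The run of 8 was on chromosome 22 between 6143473 and 6401200, where 8 of 10 eligible regions were higher and the other 2 had log2 ratios of 0.44 and 0.95. Its regions had 72 to 251 mutant and 17 to 94 wild type reads, around clone-named genes. Further runs in the first 7 Mb of chromosome 22 held 3 of 8, 4 of 7 and 3 of 4 eligible regions. They lay around clone-named, locus-number and zinc finger genes, and their higher regions had log2 ratios of 1.03 to 2.39. The run with 3 of 8 also held a lower region (38 against 110). Without the first 7 Mb of chromosome 22, 18.1% of higher regions lay within 100 kb of another.

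Runs on other chromosomes were of 3 or 4 higher regions and differed in kind. Beside admp, a BMP family gene of the organizer, 3 regions on chromosome 2 were higher, with no other eligible region between them. They lay 46.4, 56.8 and 102 kb from its TSS, with 170 against 77, 302 against 148 and 167 against 82 reads. The promoter region of admp had 286 against 235, a log2 ratio of 0.28. On chromosome 6, 4 of 5 regions over 100 kb were higher, with nat8l2 as the nearest gene. They included its promoter region with 82 against 34 and a region at 3.82 kb. The others lay 99.4 and 100 kb from its TSS, with centres 0.773 kb apart. On chromosome 15, 3 of 4 regions with cep57 as the nearest gene were higher. The deepest, with 929 against 417, lay 99.4 kb from its TSS. Another lay at 100 kb, with centres 0.722 kb apart, and the last at 3.40 kb. In these 3 runs the ratios were between 2.02 and 3.36-fold.

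On chromosomes 3 and 7 the runs mixed very large and small differences. The run of chromosome 3 began inside nfil3-6, a bZIP factor gene (82 against 26), went on with 189 against 16 and ended with the region of 426 against 5. Between the last 2 lay a region that was lower in the mutant, 44 against 129, and the promoter regions in the run had 71 against 67 and 751 against 507. The run of chromosome 7 held the region with the highest ratio, another inside syt7b (177 against 73) and one near rplp2l (109 against 7), while 4 regions between them had log2 ratios of -0.32 to 0.97.

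**Figure D5:**
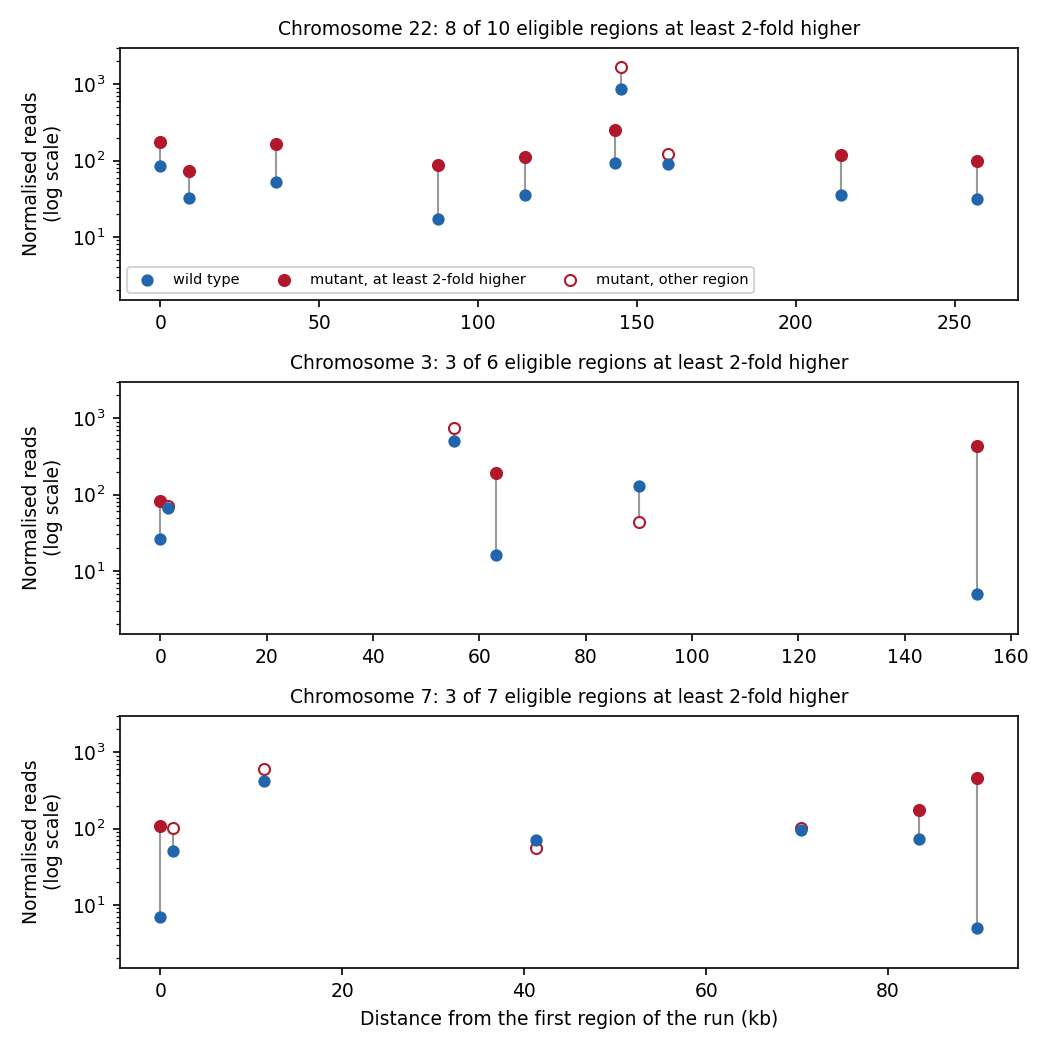
Normalised reads (log scale) of each eligible region against its distance (kb) from the first region, in a run on chromosome 22, one on chromosome 3 and one on chromosome 7. On chromosome 22, 8 of 10 regions were at least 2-fold higher by moderate ratios; on chromosomes 3 and 7 regions with 5 to 16 wild type reads share the run with regions that were less than 2-fold apart, and on chromosome 3 with one that was lower (44 against 129).

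The surroundings of the higher regions also leaned to the mutant side. Of 113 other eligible regions within 5 kb, 77 (68.1%) had a log2 ratio above 0, with a median of 0.14, and of 1013 at 50 to 100 kb 56.8% did, against 51.3% of all eligible regions. Around lower regions the shares were 32.1% within 5 kb and 46.2% at 50 to 100 kb. Neighbours within 5 kb thus shared the direction more often than those farther off, by small amounts. Of the genes with an assigned higher region, 54 had further eligible regions, 66 in all. Of these, 46 (69.7%) were above 0, with a median of 0.09, and 1 was at least 2-fold lower. Many of the 66 were promoter regions, and all eligible promoter regions had a median of 0.10. The rest were assigned regions beyond 1 kb, whose eligible medians were -0.02 inside a gene and 0 outside it. Whether the 66 lean beyond a matched mix of classes was not tested. Position class was not matched in the comparisons of this paragraph. There were 6 genes with 2 higher regions each: tusc2a (273 against 95 and 149 against 69), fam189a1 (138 against 48 and 274 against 131 at its promoter), nat8l2, the clone-named si:dkey-56d12.4 and si:dkey-1n7.1, and a gene without a symbol on chromosome 22.

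Of the 533, 55 (10.3%) had a region at least 2-fold lower within 100 kb, near the 9.78% of all eligible regions that had another such region. The most extreme case was on chromosome 24, where the region of 428 against 15 nearest srcin1b had a region of 14 against 363 at a distance of 29.5 kb and 2 further lower regions at 47.4 and 96.1 kb.

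At the threshold the regions passed into the bulk without a gap. Just inside were regions nearest to nell2a (69 against 34), pmp22a (85 against 42) and cald1a (245 against 122), each with a log2 ratio of 1. Just outside were regions nearest to akap11 (435 against 218), foxf2a (170 against 85) and si:ch73-389o5.4 (160 against 80), each at 0.99. At the minimum level, 6 regions had a mean of 50. The smallest ratios among these were nearest to si:dkey-17m8.2 (67 against 33), dnm1a and rbm7 (both 68 against 32).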

How the data were processed

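Chromatin accessibility was measured by ATAC-seq in 1 wild type and 1 npas4l mutant embryo library. The deposited library columns hold whole-number scores, which the authors scaled from read counts and rounded, judging by the values themselves. Dividing the mutant values by 1.06505 gave whole reads in 99.96% of mutant values no higher than 4000 (93.9% would match by chance, with a match counted where some whole number of reads rounds to the value), and the wild type factor was taken as 0.939. The mutant factor is an estimate, and the wild type factor was set as its inverse. They served only the counting intervals and the recovered read totals, which are estimates too. The deposited log2 ratio is log2 of mutant + 1 over wild type + 1, and the deposited fraction, per the file headers, gives the overlap of a region with its gene and separated regions inside a gene (at least 0.5) from those outside. Per the submitters' processing notes, the tools included STAR 2.5.3a, Trimmomatic 0.36, MACS2, Picard 2.9.0, DESeq, DESeq2 1.14.1 and deepTools 2.5.4, with the builds danRer10 and GRCz10, and no roles are given. Peak merging, duplicate removal and any shift of read ends are not given in the sources used here. Nor is it given whether starts count from 0 or 1.

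A region without an assigned gene was placed by the nearest TSS that the table holds. Symbols are the table's, except for clone names and for symbols that the name table gives to another gene identifier (149 of 17484 assigned regions, 5 of them among the 533). The regions and gene lists were chosen with earlier results of these data known. Named were the 14 largest ratios and the 14 largest means with a symbol other than a clone name (at most 1 region per gene), runs of 3 or more within 100 kb, the 10 deepest promoter regions, regions within 50 kb of a listed gene, genes with 2 or more higher regions, and the regions beside the threshold. Others, among them the symbol groups, all 10 regions of largest ratio, the promoter regions at least 4-fold higher and the named genes of chromosome 22, were chosen after their values were seen. Alternatives covered the level, the pseudocount, the threshold, the scaling and the distances. Calculations, tested on simulated data, used Python 3.11.15, numpy 2.4.6, pandas 2.3.3 and scipy 1.17.1, and figures matplotlib 3.10.9.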

Additional observations from a re-analysis of the deposited data

How the results depend on the processing

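No paired analysis was possible because there was 1 library per genotype, and for the same reason no replicate could be left out. The number of higher regions was 921 with a minimum mean of 30 and 201 with 100, 2147 at 1.5-fold and 135 at 3-fold, and 342 when scaled to the highest 10% of regions. Against 533 higher and 458 lower regions (53.8% higher), equal sums gave 43.7% higher, the highest 10% gave 34.2%, and centring within deciles of level and promoter class gave 584 against 325 (64.2%), of which 479 were among the 533. The promoter share was 40.7% at 1.5-fold, 17.0% at 3-fold and 16.8% under that centring. The share in runs was 27.6% with a minimum mean of 30, 41.0% at 1.5-fold, 13.3% at 3-fold, 17.9% with equal sums, 14.3% with the highest 10%, 15.2% at 50 kb, 39.0% at 250 kb and 18.1% without the first 7 Mb of chromosome 22, an alternative chosen after seeing the data. The median width was 421 bp with a minimum mean of 30, 688 bp with 100 and 493 bp when centred within deciles of level. The nearest TSS lay within 50 kb for 80.2% at 1.5-fold, and within 20 kb for 61.0%. Regions near listed genes numbered 16 with a minimum mean of 30, 31 at 1.5-fold, 4 at 3-fold and 5 with the highest 10%. The median log2 ratio was 0.79 at 1.5-fold, 2.07 at 3-fold, 1.27 with equal sums and 1.32 with the highest 10%. Where a threshold or level was changed, the number of regions that pass changes by construction, and so do shares within a changed distance. Position class and width were not part of the rule. Why they, the share in runs and the results under other scalings moved was not tested. Of 83 named regions, 26 fell below a log2 ratio of 1 under at least 1 of 7 alternatives, to 0.87 at the lowest; shifts of this size could not turn the direction of a region chosen at 1 or above. The depth limits ratios of regions with few wild type reads.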

Other observations

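The minimum of 4 reads in each library left out 24 regions that met the other conditions and were nearly absent from the wild type library. They had 0 to 3 reads there, 15 of them 0, and 108 to 942 in the mutant, with a median of 172. Of these, 17 had no assigned gene, 3 were promoter regions, 3 lay outside their gene and 1 inside it, and their median width was 515.5 bp. The deepest lay on chromosome 3, 1.58 kb from slc6a16a, a solute carrier gene, with 942 mutant and 0 wild type reads. Others without wild type reads were nearest to chchd6b at 247 kb (633 in the mutant) and to rbis at 149 kb (545). The promoter regions belonged to clone-named genes, with 151 to 376 mutant reads and 0 to 1 in the wild type. In the other direction 11 regions were nearly absent from the mutant library. Of the 24, 2 lay within 100 kb of one of the 533 higher regions. This was near the 8.68% of all eligible regions that had a higher region other than themselves within that distance.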
